A study of Oryza sativa Japonica Group with 28 samples.

Results

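The 10 rice genes described here encode the enzymes that make and inactivate brassinosteroids, a sterol enzyme upstream of them and the brassinosteroid receptor. They were taken by identifier from the 45990 genes of the expression table: the synthesis enzymes OsDWARF (Os03g0602300), D11 (Os04g0469800), D2 (Os01g0197100), OsDWF4 (Os03g0227700) and CYP90A3 (Os11g0143200), the inactivating enzymes CYP734A2 (Os02g0204700), CYP734A4 (Os06g0600400) and CYP734A6 (Os01g0388000), the sterol demethylase CYP51G1 (Os11g0525200) and the receptor OsBRI1 (Os01g0718300). A filter on low values, which asked for a value above 10 and at least 10 reads in at least 1 library, was passed by 9 of the 10 genes and by 27527 genes in all. CYP734A2 did not pass it and entered no test.

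Brassinosteroids are steroid hormones of plants that promote cell expansion, and in rice the mutants dwarf, d2 and d11 are known for short stature or altered grains. Plants make them from membrane sterols through a chain of cytochrome P450 hydroxylations and oxidations, and further P450 enzymes hydroxylate the active hormone and so inactivate it. The hormone is perceived at the cell surface by the receptor kinase BRI1.

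Grains of the cultivar Nipponbare, grown in hydroponic culture with no other treatment or genetic change named, were harvested 4, 8 or 16 days after flowering (DAF) and cut by laser capture microdissection. The tissues were cross cells (CC), a cell layer of the grain's outer wall, the nucellar epidermis (NE) around the endosperm, the ovular vascular trace (OVT) that supplies the grain, the starchy endosperm (EN) and, at 16 DAF only, the aleurone layer (AL). There were 28 libraries in 13 groups of 1 to 3, each prepared from 3 grains. EN of 4 DAF, CC of 8 DAF and OVT of 16 DAF had 1 library each, so that a test of these groups assumed that they vary like the others.

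Values are the deposited signal, a read number per gene multiplied by 1 factor for each library. Estimated depth ranged from 815284 reads (CC of 8 DAF) to 97249910 reads, with a median of 6868545. For a gene listed at 0, an expected count of up to 3 reads was allowed, a limit that covers counting error only. It corresponded to a value between 0.132 and 33.4 depending on the library. The 5 lists of marker genes were each at their highest share of signal in a library of the labelled tissue. Of the 4 markers each for OVT and NE, 3 were genes that the study had picked from these same libraries. Their peaks in those tissues are therefore no independent evidence. Some libraries stood apart, however. The 2 OVT libraries of 8 DAF, MM21 and MM22, correlated at 0.645 over the tested genes, the lowest of 20 pairs of replicates. The library labelled NE MM17 of 16 DAF correlated at 0.990 with AL MM17, above the highest value between replicates (0.955). It had 1 of 4 nucellar epidermis markers above 0, and the single aleurone marker took 0.000425% of its signal against 0.000462 to 0.000846% in AL. For OVT of 16 DAF the sources differ. The study's methods count 1 library of that group among those used and the sample labels keep MM17, the library described here, whereas the supplementary list of libraries marks MM17 as excluded and keeps MM04. MM17 had 9044 genes above 0, the fewest of all libraries, no cross cell or nucellar epidermis marker above 0 and 3.71% of its signal in the 5 endosperm markers. In such bulk samples, fewer cells of a type and less RNA per cell cannot be told apart.

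Divided by gene length, the receptor, the sterol enzyme and 1 synthesis enzyme stood above the other 7 genes. The median level over the 28 libraries was 212 per kb for CYP51G1, 51.0 per kb for OsBRI1 and 50.9 per kb for OsDWARF. D11 followed with 3.73 per kb, CYP734A4 with 0.723 per kb and CYP90A3 with 0.272 per kb, while D2, OsDWF4, CYP734A2 and CYP734A6 had a median of 0. CYP51G1 was above 0 in all 28 libraries and OsDWARF and OsBRI1 in 27 each, whereas CYP734A2 was above 0 in 2.

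**Figure D1:**
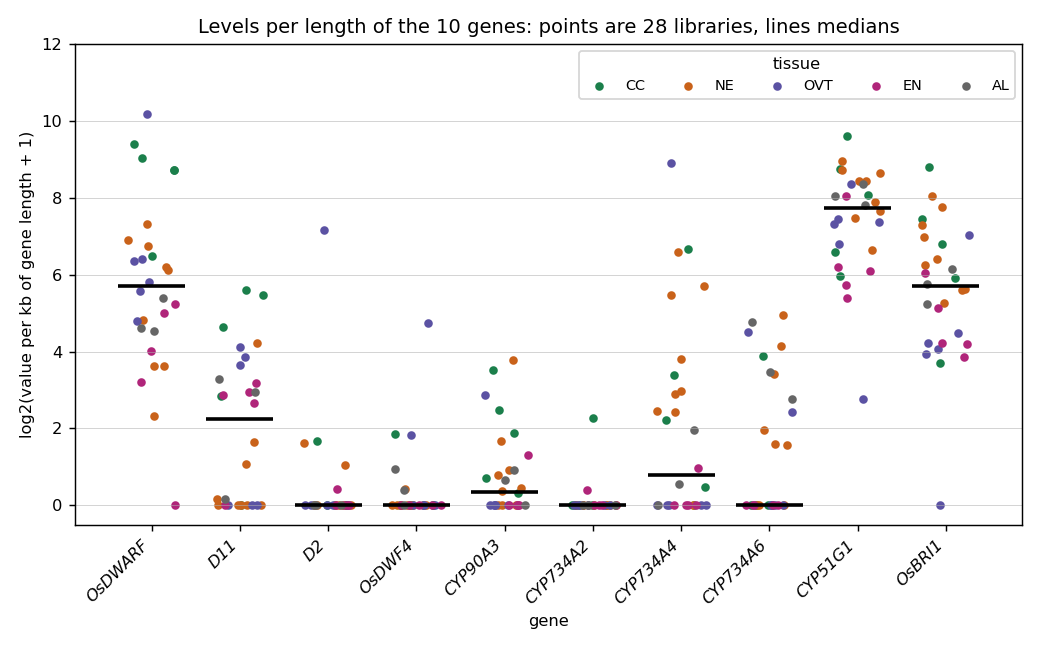
Levels per length of the 10 genes in 28 libraries, as log2(value per kb of gene length + 1), with 1 point for each library coloured by tissue and a line at the median. CYP51G1, with a median of 212 per kb, lies highest, OsBRI1 and OsDWARF have medians near 51 per kb, and 4 genes have a median of 0.

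Where in the grain these genes differ was asked by setting CC, NE, OVT and EN each against the average of the 3 others at the same DAF, so that AL took no part in this comparison at 16 DAF. Over the 12 comparisons, 5 tests of 108 were called higher and 3 lower (limma, Benjamini-Hochberg adjusted p under 0.05), with 22 at an unadjusted p under 0.05, whereas 8.59% of all gene and comparison pairs were called. The calls belonged to OsDWARF, D2, CYP51G1 and OsBRI1. D11, OsDWF4, CYP90A3, CYP734A4 and CYP734A6 had no call.

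OsDWARF is the P450 that carries out the last oxidation steps to castasterone, the main active brassinosteroid of rice. The CC libraries had values of 169 and 806 at 4 DAF, of 1284 at 8 DAF (135 reads) and of 806 and 995 at 16 DAF. In EN the values were 58.7 at 4 DAF, 15.6 and 28.9 at 8 DAF, then 0 and 69.0 at 16 DAF. The CC and EN libraries thus did not overlap at any stage.

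OVT lay between CC and EN at 4 and 16 DAF, whereas NE overlapped with CC at 4 DAF and with EN at 8 and 16 DAF, and AL overlapped with EN. In NE the OsDWARF values were 203, 131 and 299 at 4 DAF, 21.4, 224 and 21.3 at 8 DAF, then 7.52, 51.9 and 136 at 16 DAF. In AL they were 77.4, 42.3 and 44.1. OVT had 160, 104 and 154 at 4 DAF and 89.0 at 16 DAF, the latter from 8 reads. At 8 DAF the OVT libraries were far apart, with 2201 in MM21, the highest OsDWARF value of the series, and 51.2 in MM22.

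At 16 DAF OsDWARF was higher in CC than in the other tissues by 4.09 on the log2 scale (SE 1.11, adjusted p = 0.0244), where 8.52% of all tested genes were called. Both CC libraries, with a mean of 900 ± 134 (SD, n = 2), lay above every other library of that stage, the highest of which had 136. Leaving out OVT with its single library gave 4.54 (adjusted p = 0.0186), while leaving out the library labelled NE MM17 gave 4.12 (adjusted p = 0.0330). With either CC library left out the call was lost, with adjusted p of 0.0927 without MM17 and 0.144 without MM18. The 5 endosperm markers took 5.96% of the signal in CC MM17 and 0.671% in CC MM18, against 11.1 and 12.8% in EN, where OsDWARF was 0 and 69.0. All 4 cross cell markers were above 0 in both CC libraries.

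At the earlier stages the difference in OsDWARF between CC and the other tissues did not pass the test. It was 1.57 (SE 1.10, adjusted p = 0.790) at 4 DAF and 3.86 (SE 1.42, adjusted p = 0.0969) at 8 DAF. For EN of 8 DAF it was -3.29 (SE 1.11, adjusted p = 0.0532), and for AL against CC -3.85 (SE 1.21, adjusted p = 0.0771). No stage of any tissue was called for OsDWARF.

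**Figure D2:**
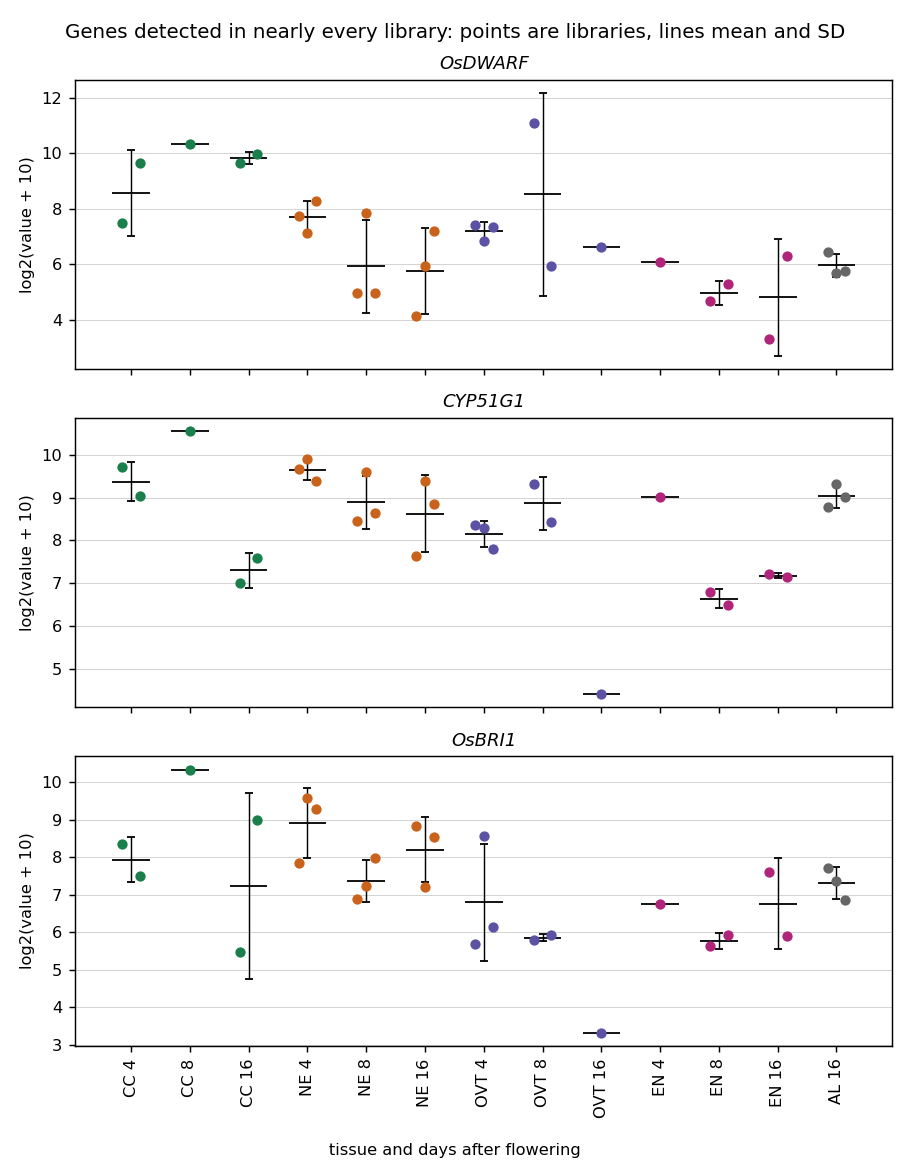
Values of OsDWARF, CYP51G1 and OsBRI1 as log2(value + 10) in the 13 groups of tissue and days after flowering, with 1 point for each library and the group mean with its SD where a group has more than 1 library. OsDWARF is highest in CC and in 1 of the 2 OVT libraries of 8 DAF, and OVT of 16 DAF is lowest for CYP51G1 and OsBRI1.

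D11 encodes a P450 that, together with OsDWF4, hydroxylates the sterol side chain early in the pathway. Its values were 51.5 and 93.6 in CC of 4 DAF, 0 in CC of 8 DAF and 13.2 and 103 in CC of 16 DAF. The OVT libraries of 8 DAF had 24.6 and 35.1, and EN had 13.6 at 4 DAF, 17.4 and 14.4 at 8 DAF, then 11.4 and 0 at 16 DAF. In NE it was at or below 4.61 in every library except MM18 of 16 DAF (37.9, from 859 reads). Of the remaining libraries, OVT MM05 of 4 DAF had 28.8, AL had 14.3, 0.261 and 18.8, and the others were at 0. The 3 highest values were thus all in CC. The difference of CC from the other tissues was 2.27 (SE 0.715, adjusted p = 0.117) at 4 DAF and 1.92 (SE 0.724, adjusted p = 0.100) at 16 DAF, neither of which passed. A value of 0, seen in 10 libraries, allowed a D11 value of up to 1.50 to 33.4, depending on the library, and that limit covers counting error only.

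D2, another P450 of the synthesis chain, was at 0 in 23 of 28 libraries. It reached 209 in OVT MM21 of 8 DAF, from 51 reads, and was 0 in OVT MM22 of the same group. The other 4 libraries above 0 had at most 3.21, from 1 to 6 reads. D2 was called higher in OVT than in the other tissues of 8 DAF by 2.20 (SE 0.588, adjusted p = 0.0180), with 9.84% of all tested genes called. It was also called higher at 8 DAF than at the other stages of OVT by 2.23 (SE 0.639, adjusted p = 0.0285), with 9.3% called. Both calls rest on MM21, since without it the differences were -0.02 and 0, each with an adjusted p of 1. The first was also lost by voom on estimated reads (2.61, adjusted p = 0.497), and the second under 7 further alternatives, with adjusted p from 0.0514 with a pseudocount of 1 to 0.593 by voom. As most libraries were at 0, these fitted differences depend on the pseudocount and bound no fold change.

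OsDWF4 was at 0 in 22 libraries. Its values above 5 were 49.7 in OVT MM06 of 4 DAF, from 64 reads, and 5.10 in CC MM13 of 4 DAF, while OVT MM05 of 4 DAF had 4.93 and OVT MM13 of 4 DAF had 0. The difference of OVT from the other tissues at 4 DAF was 0.95 (SE 0.344, adjusted p = 0.0747). CYP90A3, whose relatives act in the middle of the pathway, reached 22.6 in NE MM06, 18.5 in CC MM05 and 11.1 in OVT MM05, all of 4 DAF, and stayed at or below 8.02 elsewhere. In 8 of its 15 libraries above 0 the CYP90A3 value was not a whole number of reads within 0.03, as was that of Os12g0139300, a gene of a further list, in 8 of its 17. For the other 9 genes every value under 100 reads was whole. The level of CYP90A3 is therefore uncertain.

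Per kb, OsDWARF made up most of the summed level of the 5 synthesis genes in most libraries. Its share had a median of 89.3% and was above 80% in 18 of 28 libraries, from 0% in EN MM17 of 16 DAF to 100%. In CC it was 72.1 and 90.1% at 4 DAF, 99.6% at 8 DAF, then 98.4 and 90.6% at 16 DAF. In OVT of 8 DAF the share was 88.4% in MM21, where the sum was 1313 per kb, and 62.3% in MM22, where the sum was 43.3 per kb.

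The 3 CYP734A genes encode P450 enzymes that inactivate brassinosteroids by hydroxylation. CYP734A4 varied most. Its values in NE were 13.8, 9.52 and 14.9 at 4 DAF, 9.65, 28.2 and 109 at 8 DAF, then 93.2, 0 and 205 at 16 DAF, the 0 being the library labelled MM17. In CC it had 7.78 and 0.851 at 4 DAF, 0 at 8 DAF, then 20.4 and 215 at 16 DAF. It was 0 in all 4 EN libraries of 8 and 16 DAF and 2.10 in EN of 4 DAF, and AL had 6.16, 0 and 1.02. NE libraries were thus above 0 in 8 of 9 cases, and EN and AL remained below 7.

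In OVT, CYP734A4 was 1022 in MM21 of 8 DAF (249 reads) and 0 in the other 5 libraries, MM22 included. The fitted difference of OVT from the other tissues of 8 DAF was 2.62 (SE 1.20, adjusted p = 0.180), and that of 8 DAF from the other stages of OVT was 3.34 (SE 1.31, adjusted p = 0.120). MM21 therefore held the highest value of OsDWARF, D2 and CYP734A4 alike. Without MM22, OVT of 8 DAF had 1 library and thus no spread of its own. The differences from the other tissues of 8 DAF were then 4.03 for OsDWARF, 4.43 for D2 and 5.97 for CYP734A4. Without MM21 they were -1.15, -0.02 and -0.72, again from 1 library.

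The 4 vascular trace markers were above 0 in both of these OVT libraries and took 0.259% of the signal in MM21 and 0.531% in MM22. The 5 endosperm markers took 0.0472% in MM21 and 0.988% in MM22, while 12734 and 19608 genes were above 0 in MM21 and MM22, respectively. The part of these differences in the values of MM21 was not tested.

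CYP734A6 was above 0 in 12 libraries, with at most 31.7 in the library labelled NE MM17 of 16 DAF. AL had 6.16, 27.7 and 10.7, and NE of 8 DAF had 2.09, 17.5 and 10.4, whereas it was 0 in all 5 EN libraries. CYP734A2 had 6.42 in CC MM18 of 16 DAF, from 2 reads, and 0.524 in EN of 4 DAF, from 1 read. Summed per kb, the 3 inactivating genes exceeded the 5 synthesis genes in 5 libraries, namely NE MM22 of 8 DAF, the 3 NE libraries of 16 DAF and AL MM17. In NE of 16 DAF the sums were 43.3, 29.9 and 95.5 per kb for inactivation against 3.96, 27.3 and 90.3 per kb for synthesis, so that the 2 sums were close in 2 of these 3 libraries. The 29.9 against 27.3 per kb belongs to the library labelled NE MM17, which resembled AL MM17. In AL MM17 the sums were 26.1 per kb for inactivation and 23.3 per kb for synthesis.

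**Figure D3:**
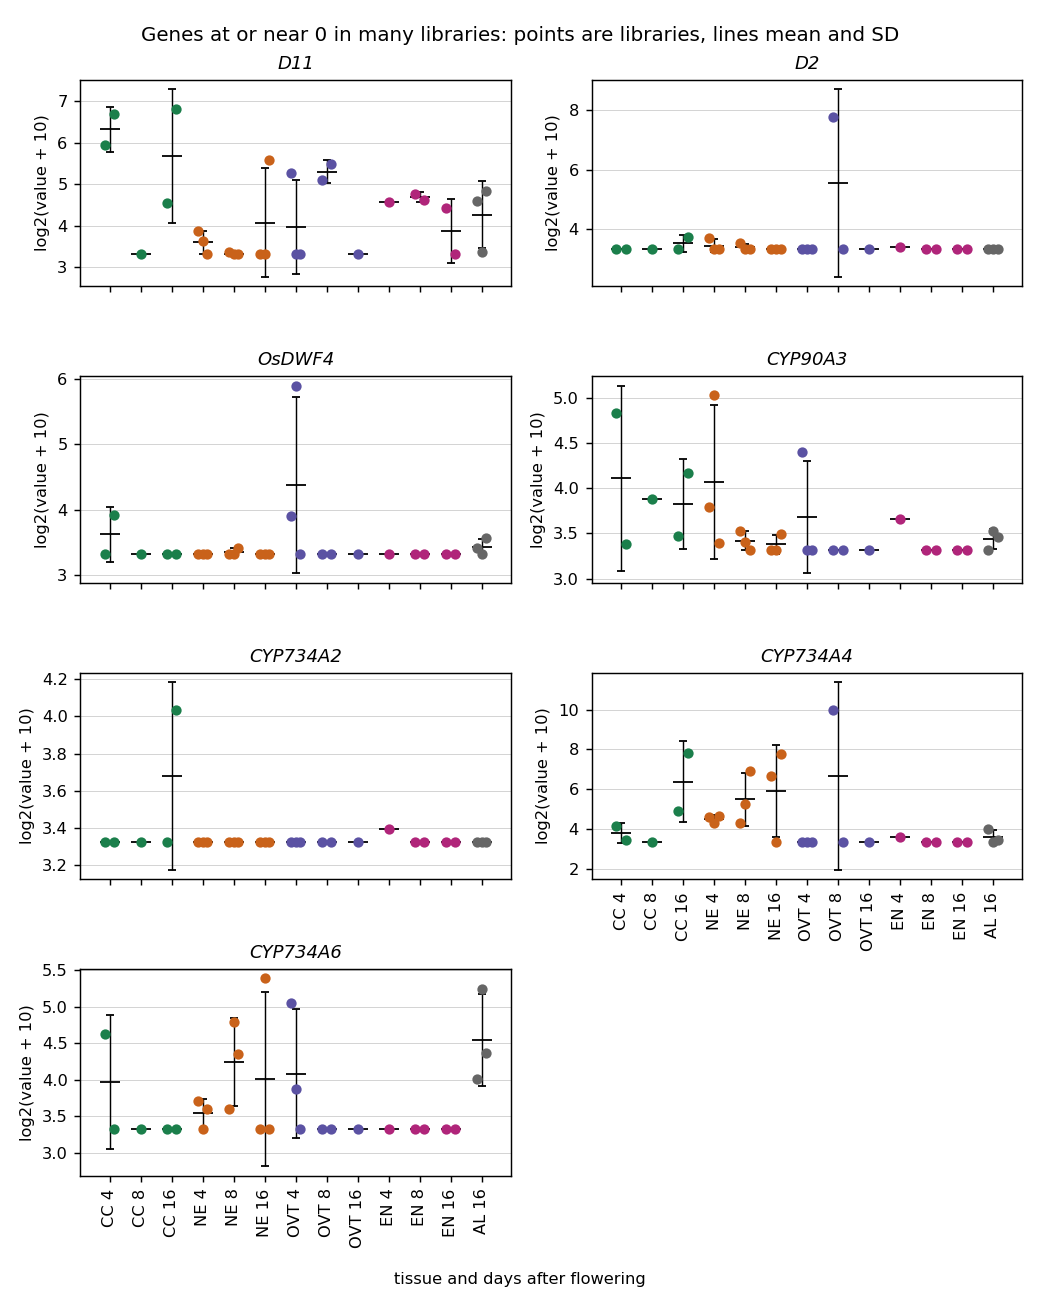
Values of D11, D2, OsDWF4, CYP90A3, CYP734A2, CYP734A4 and CYP734A6 as log2(value + 10) in the 13 groups of tissue and days after flowering, with 1 point for each library, the group mean and its SD where there is more than 1 library. The vertical scales differ between the panels, and in OVT of 8 DAF D2 and CYP734A4 are high in 1 library (209 and 1022) and at 0 in the other.

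CYP51G1, the sterol demethylase that acts upstream of all brassinosteroids and of membrane sterols as well, had the widest range of calls. At 4 DAF its values were 825 and 519 in CC, 808, 947 and 663 in NE, 505 in EN and 316, 304 and 212 in OVT. At 8 DAF they were 1493 in CC (157 reads), 339, 765 and 387 in NE, 624 and 334 in OVT and 101 and 79.4 in EN. At 16 DAF they were 118 and 183 in CC, 189, 659 and 453 in NE, 139 and 130 in EN, 428, 628 and 506 in AL and 11.1, or 1 read, in OVT. Within each stage, EN of 8 DAF and OVT of 16 DAF lay below every other library.

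At 8 DAF CYP51G1 was lower in EN than in the other tissues (log2 difference -2.80, SE 0.558, adjusted p = 0.00205), with 12.9% of all tested genes called. The 10 most abundant genes took 46.3 and 56.9% of the signal in these EN libraries, and their part in the difference was not tested. Without EN MM22 the difference was -2.65 (adjusted p = 0.0652), and with upper-quartile factors in place of the deposited scaling it was -1.84 (adjusted p = 0.0706). In CC of 8 DAF CYP51G1 was higher by 2.42 (SE 0.712, adjusted p = 0.0310), and 9.37% of genes were called there. That CC library was the shallowest, and the call was lost with TMM factors (1.80, adjusted p = 0.145), with upper-quartile factors (1.27, adjusted p = 0.467), by voom on estimated reads (2.69, adjusted p = 0.412) and without EN MM22 (2.37, adjusted p = 0.0551).

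At 16 DAF CYP51G1 was higher in NE than in CC, OVT and EN by 2.34 (SE 0.495, adjusted p = 0.00561) with 8.14% of genes called. AL, whose mean of 521 was above the 434 of NE, was not among the tissues compared, and with AL among them the difference was 1.65 (adjusted p = 0.0566). CYP51G1 was lower in OVT than in CC, NE and EN (-3.30, SE 0.712, adjusted p = 0.00152) with 18.2% called. The NE call also rests on the single OVT library among the tissues compared, since against CC and EN alone the difference was 1.39 (adjusted p = 0.130). Without the library labelled NE MM17 it was 1.96 (adjusted p = 0.0341). The OVT call rests on 1 read in 1 library, and voom on estimated reads gave -4.87 (adjusted p = 0.0893).

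Across the stages, CYP51G1 was lower at 16 DAF than at 4 and 8 DAF in CC (-2.67, SE 0.622, adjusted p = 0.0142), where 3.96% of all tested genes were called. The 3 earlier CC libraries ranged from 519 to 1493 and the 2 later ones from 118 to 183, without overlap. The call was lost when CC MM05, whose day label reads 8 DAF, was taken as 8 DAF (-2.29, adjusted p = 0.0722) and without CC MM17 (-2.37, adjusted p = 0.0928). It was also lost with upper-quartile factors (-2.35, adjusted p = 0.104), by voom (-3.07, adjusted p = 0.293) and with the letter B or X of the library titles as a covariate (-2.44, adjusted p = 0.0579). In OVT, CYP51G1 was higher at 8 DAF than at the other stages (2.59, SE 0.607, adjusted p = 0.00782) and lower at 16 DAF (-4.11, SE 0.731, adjusted p = 0.000220), with 20.5% of genes called for 16 DAF. Against 4 DAF alone, with OVT of 16 DAF left out, the difference of 8 DAF was 0.72 (adjusted p = 0.679), without OVT MM21 it was 2.15 (adjusted p = 0.0875), and by voom 3.42 (adjusted p = 0.127). In total 2 tests were called higher and 2 lower among the 108 tests of stages, with 17 at an unadjusted p under 0.05, while 6.05% of all gene and comparison pairs were called.

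OsBRI1, the receptor kinase that binds brassinosteroids at the plasma membrane, was at 1284 in CC of 8 DAF (135 reads), its highest value. The other CC libraries had 317 and 172 at 4 DAF, then 34.7 and 501 at 16 DAF. In NE it was 218, 757 and 619 at 4 DAF, 107, 140 and 241 at 8 DAF, then 449, 138 and 362 at 16 DAF. In OVT it was 41.1, 372 and 61.0 at 4 DAF, 45.2 and 50.6 at 8 DAF and 0 at 16 DAF, which allowed a value of up to 33.4. In EN it was 98.0 at 4 DAF, 39.1 and 50.5 at 8 DAF, then 186 and 49.9 at 16 DAF, and AL had 200, 154 and 106. NE lay above EN at every stage apart from NE MM17 and EN MM17 of 16 DAF, which overlapped.

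OsBRI1 was higher in CC than in the other tissues of 8 DAF by 4.01 (SE 1.13, adjusted p = 0.0242). Like that of CYP51G1, this call from the shallowest library was lost with TMM factors (3.40, adjusted p = 0.0563), upper-quartile factors (2.84, adjusted p = 0.145) and voom (4.42, adjusted p = 0.224). It was lower in OVT of 16 DAF (-4.08, SE 1.13, adjusted p = 0.0118), where the pseudocount of 30 ended the call (-2.72, adjusted p = 0.0638). The limit of 3 reads in that library covers counting error only. Against it, the group mean of OsBRI1 was at least 9.49-fold higher in NE, at least 8.03-fold higher in CC and at least 3.53-fold higher in EN. In NE the libraries gave at least 13.5-fold for MM04, 10.9-fold for MM18 and 4.14-fold for the library labelled MM17. The CC value rests on MM18 (at least 15.0-fold), as MM17 alone gave at least 1.04-fold, and in EN the libraries gave at least 5.57-fold for MM17 and 1.49-fold for MM18. In NE of 16 DAF the difference from the other tissues was 2.42 (SE 0.787, adjusted p = 0.0572), which did not pass. No stage of any tissue was called for OsBRI1.

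**Figure D4:**
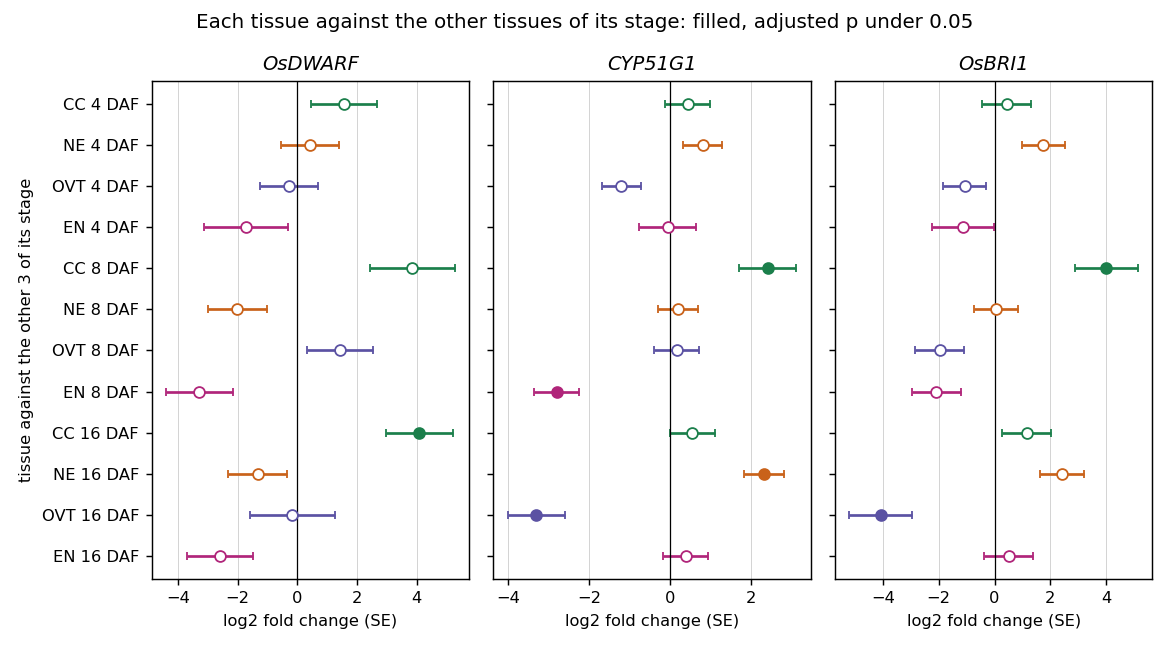
Log2 fold change with its SE for OsDWARF, CYP51G1 and OsBRI1 in CC, NE, OVT and EN, each against the 3 others of the same DAF without AL, with filled points for an adjusted p under 0.05. OsDWARF passes in CC of 16 DAF (4.09), CYP51G1 in 4 comparisons and OsBRI1 in CC of 8 DAF (4.01) and OVT of 16 DAF (-4.08).

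AL was compared with each tissue of 16 DAF. Among 36 tests 2 were called, both higher in AL than in OVT, against 7.81% of all gene and comparison pairs and 17.2% of the genes between AL and OVT. The difference was 4.63 (SE 0.768, adjusted p = 0.000146) for CYP51G1 and 3.99 (SE 1.22, adjusted p = 0.0250) for OsBRI1. The CYP51G1 mean of 521 ± 101 (SD, n = 3) in AL was 46.8 times the value of the 1 read in OVT, with an exact Poisson 95% interval of that read, which covers counting error only, giving 8.40 to 1849 times. Against the limit of 3 reads in OVT, which also covers counting error only, the OsBRI1 mean in AL was at least 4.59-fold higher. The lowest AL library, MM18, gave at least 3.16-fold. Both calls rest on the single OVT library. The OsBRI1 call was lost with a pseudocount of 30 (2.58, adjusted p = 0.115), without AL MM04 (3.78, adjusted p = 0.0594) and without AL MM17 (3.96, adjusted p = 0.0506). Between AL and NE limma called none of the 9 genes and 0 of all 27527, with 0 of the 9 and 848 of all at an unadjusted p under 0.05, so that the absence of calls says nothing particular of the 9. Voom called none of the 9 and 17 of all, and without the library labelled NE MM17, which resembled AL MM17, limma called none of the 9 and 151 of all. OsDWARF differed by 0.21 (SE 1.09), CYP51G1 by 0.41 (SE 0.543) and OsBRI1 by -0.89 (SE 0.862).

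Whether the change from 4 DAF to 8 or 16 DAF differed between tissues was tested for each pair of tissues. None of 108 tests passed, against 3.81% of all gene and comparison pairs, with 11 at an unadjusted p under 0.05 by limma and 0 calls by voom. The smallest adjusted p was that of CYP51G1 for the change to 16 DAF in NE against OVT, at 2.71 (SE 0.940, adjusted p = 0.0572).

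Ranked by mean log2 value over the 13 groups, OsDWARF ran from CC of 8 DAF (10.34) through CC of 16 DAF (9.82), CC of 4 DAF (8.58) and OVT of 8 DAF (8.52) down to EN of 8 DAF (4.98) and EN of 16 DAF (4.81). CYP51G1 ran from CC of 8 DAF (10.55) and NE of 4 DAF (9.66) to EN of 8 DAF (6.64) and OVT of 16 DAF (4.40), and OsBRI1 from CC of 8 DAF (10.34) and NE of 4 DAF (8.90) to EN of 8 DAF (5.77) and OVT of 16 DAF (3.32). No test between neighbours in these orders passed. Over the 12 neighbouring pairs of each gene the smallest adjusted p was 0.0585, for CYP51G1. The neighbours were set by the same levels, which keeps their gaps small, so these tests cannot show that neighbouring groups are alike. The top and bottom groups differed by 7.02 for OsBRI1, 6.15 for CYP51G1, 5.52 for OsDWARF, 3.34 for CYP734A4 and 3.00 for D11. For D2, CYP734A6, OsDWF4 and CYP90A3 the gap was 2.23, 1.22, 1.05 and 0.785, respectively. No test result is given for these gaps, since the groups were picked by their levels.

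Over the same 13 group means, Pearson's r was 0.87 between CYP51G1 and OsBRI1, 0.42 between OsDWARF and OsBRI1 and 0.28 between OsDWARF and CYP734A4. These are descriptions of points that share libraries, depth and scaling. CYP51G1 and OsBRI1 were both highest in CC of 8 DAF and lowest in OVT of 16 DAF, each a single library. The genes outside the 10 with a pattern most like that of OsDWARF were Os06g0155600 (r = 0.93), Os11g0477400 (0.93) and Os06g0264800 (0.92). For CYP734A4 they were Os01g0621200 (0.92), Os12g0624100 (0.91) and Os03g0840275 (0.91), and for OsBRI1 Os03g0708400 (0.97), Os07g0549200 (0.94) and Os05g0429400 (0.94). The genes like OsDWARF and OsBRI1 were all highest in CC of 8 DAF, and those like CYP734A4 in OVT of 8 DAF. The part of single libraries in these correlations was not tested.

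Of the other brassinosteroid genes, 25 come from a list that the study drew from these libraries, so that their direction is no independent evidence, and are named as there. All 25 were tested. In EN of 16 DAF 9 were lower and 1 higher, led by the kinase gene OsGSK4 (Os06g0547900, -5.67) and OsBIN1like (Os01g0279800, -5.41), with a list median of -1.45 against -0.20 for all tested genes, of which 16.1% were called. The 10 most abundant genes took 51.4 and 41.8% of the signal in these EN libraries, and their part in the differences was not tested. In EN of 8 DAF 4 were lower, led by OsLRR1 (Os01g0809300, -3.37) and OsSMT2 (Os03g0136200, -3.21), which made 16% of the list against 12.9% of all tested genes called. In NE of 16 DAF 7 were higher, led by the sterol reductase gene OsDWARF5 (Os02g0465400, 3.98) and the receptor-like gene OsBRL1 (Os09g0293500, 3.86), or 28% against 8.14% of all tested genes.

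In OVT, 7 of these 25 genes were higher and 3 lower at 4 DAF, led by OsBAK1-7 (Os06g0274500, 6.39) and OsLRRlike (Os05g0491400, -6.15), where 11.7% of all tested genes were called, and 6 were higher and 1 lower at 8 DAF, led by OsBIN1like (Os05g0414700, 5.51) and OsSERL3 (Os02g0728500, 5.47), with 9.84% of all tested genes called. At 16 DAF 6 were higher and 5 lower in the single OVT library, led by a kinase gene (Os08g0276400, 6.11) and OsBAK1 (Os03g0440900, 5.60), with 18.2% of all tested genes called. In CC 2 were higher and 1 lower at 16 DAF, led by OsDRM3 (Os05g0133900, 4.01) and OsBSL2 (Os12g0617900, 4.00), or 12% against 8.52% of all tested genes, and OsRLCK54 (Os01g0935800, 2.13) was higher at 4 DAF, where 2.11% of all tested genes were called. In the other 4 comparisons of tissues none was called.

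By stage, 6 of the 25 were lower at 16 DAF in EN, led by OsDWARF5 (-4.61) and the sterol methyltransferase gene OsSMT1 (Os07g0206700, -4.04), with 6.07% of all tested genes called. In EN the 10 most abundant genes took 13.2% of the signal at 4 DAF, a single library. They took 46.3 and 56.9% at 8 DAF, then 51.4 and 41.8% at 16 DAF. Their part in the differences with EN, by stage or against AL, was not tested. In OVT 4 were higher and 9 lower at 16 DAF, led by Os08g0276400 (7.90) and OsBAK1-7 (-6.28), with 20.5% of all tested genes called. At 4 DAF in OVT 6 were higher and 3 lower, led by Os08g0276400 (-4.55) and OsDRM3 (4.01), with 14.6% of all tested genes called. AL had 11 of the 25 higher than EN, led by OsDWARF5 (4.70) and OsSMT1 (4.46), with a list median of 2.23 against 0.28 for all tested genes, of which 10.5% were called. Against the single OVT library, 5 of the 25 were higher in AL and 7 lower, led by Os08g0276400 (-5.58) and OsBAK1 (-5.57). In that comparison 17.2% of all tested genes were called. Of 16 further genes fixed by identifier only, 14 were tested, and no comparison of tissues, stages or AL had more than 2 called.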

How the data were processed

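The members and gene lists were chosen with earlier results of these data known. The authors mapped reads onto the Nipponbare genome IRGSP1.0 by STAR and computed gene counts in R/Bioconductor. Versions and the treatment of reads matching several genes are not given in the sources used here. The deposited signal values are read numbers multiplied by 1 factor per library. Between 85.5 and 95.7% of values under 100 reads were whole multiples of 1 step within 0.03, and this step gave the estimated reads. The cDNA was amplified by PCR without molecular tags named. In the table, 1 column of values matched no sample and was not used.

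Values were fitted as log2(value + 10) in limma 3.58.1 (R 4.3.3) with 1 mean per group, trended robust empirical Bayes variances, 15 residual degrees of freedom and two-sided p-values adjusted over 27527 genes. P measures the spread between these libraries. Fold changes understate low genes. The fit was tested on simulated data. A count test was not the main one, because the values are not counts, and voom on estimated reads served as an alternative. Named genes were the 10 members, the 2 called genes of each list with the largest change in a comparison, and the 3 most similar patterns for OsDWARF, CYP734A4 and OsBRI1. Of the list genes, those of the first list are given for the tissue comparisons, for AL against EN and OVT and for some of the stage comparisons. No member identifier was found in the RefSeq gene table (0 of 10), so names come from the study and no position or sequence is given. CC MM05 was taken as 4 DAF from its title.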

Additional observations from a re-analysis of the deposited data

Results flagged for a closer look

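None of the 9 tested members changed between stages in a way that differed between tissues beyond the threshold, and CYP734A2 was not tested. No group was large enough for a check of single outlying libraries. Among the 39 tested genes of the 2 lists of other brassinosteroid genes, 31 of 468 differences between tissues in the change with stage passed the test of that difference itself (limma, adjusted p under 0.05), or 6.62% against 3.81% of all gene and comparison pairs. Of the 39 genes, 25 come from the list that the study drew from these libraries, so the 6.62% is no independent evidence. Of the 31 differences, 22 involve OVT of 16 DAF. The 14 given here are the 2 with the largest change for each list and comparison. For the change from 4 to 16 DAF, Os08g0276400 differed by -8.59 between CC and OVT, by -7.34 between NE and OVT and by 9.85 between OVT and EN. OsDRM3 (Os05g0133900) differed by 6.003 between CC and EN and by 8.46 between CC and OVT. OsSMT1 (Os07g0206700) differed by 8.93 between OVT and EN, OsLRRlike (Os05g0491400) by -6.71 between NE and OVT, and Os08g0174700 by 5.12 between NE and OVT. Between NE and EN, a sterol isomerase gene (Os01g0354200) differed by 7.10 and OsDWARF5 (Os02g0465400) by 5.60. OsRLCK54 (Os01g0935800) differed by -2.12 between CC and EN and by -2.05 between CC and NE to 16 DAF, and to 8 DAF by -2.005 between CC and NE and by -2.26 between CC and OVT. All are differences of log2 changes, the first-named tissue minus the second. Every one but that between CC and NE to 16 DAF involves at least 1 group of a single library.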

How the results depend on the processing

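The comparisons of tissues, of stages, of AL and of the change with stage gave 8, 4, 2 and 0 calls for the 9 tested genes. A pseudocount of 1 gave 7 calls for stages and 4 for the change with stage. The latter count was 2 with no filter, 1 with TMM factors and 1 with plain empirical Bayes variances. Upper-quartile factors gave 4 calls for AL and voom on estimated reads gave 6. Leaving out 1 library at a time gave 4 to 16 calls for tissues, 1 to 9 for stages, 1 to 4 for AL and 0 to 8 for the change with stage, the highest each time without OVT MM22 of 8 DAF. The fit without OVT MM22 left 1 library in that group, so its p-values measure no spread there. With the replicate block there was 1 call for stages. That block ended the calls of CYP51G1 in CC of 8 DAF (1.71, adjusted p = 0.270), in EN of 8 DAF (-2.21, adjusted p = 0.0960), in CC of 16 DAF against the other stages (-2.09, adjusted p = 0.177) and in OVT of 8 DAF against the other stages (2.31, adjusted p = 0.102), of OsBRI1 in CC of 8 DAF (4.09, adjusted p = 0.0812) and in AL against OVT (3.39, adjusted p = 0.0862) and of D2 in OVT of 8 DAF against the other stages (1.17, adjusted p = 0.488). The shared numbers were not shown to pair the libraries, since 6 of 25 same-numbered pairs had deviations that correlated above 0.1 (median 0.02) and 13 of 25 libraries correlated best with their own number. D2 in OVT of 8 DAF had a difference of -0.0233 without MM21 and was 4.43 without MM22. Upper-quartile factors moved the median of all tested genes by -0.65 to 0.81 and TMM factors by -0.21 to 0.32 across the 40 comparisons. CYP51G1 in OVT of 16 DAF against the other stages and CYP51G1 in AL against OVT kept their calls under all 38 alternatives that gave a value. The alternative without the single OVT library of 16 DAF gave none, so the dependence of these calls on that library could not be checked. CYP51G1 in NE of 16 DAF lost its call when OVT was left out and when AL was added to the tissues compared with, both chosen after seeing the data, and kept it under the 38 others. The causes of these changes were not tested. Dividing by length cannot change the order of groups within a gene, so that this alternative gave no value. The value of 1 read was largest in OVT of 16 DAF (11.1) and next in the CC library of 8 DAF (9.51), so low levels are least resolved there.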
